A study of Rattus norvegicus with 20 samples.

Results

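Motile cilia genes encode the parts of the beating cilium, and 82 of the 19060 genes measured in rat lung belonged to the set described here. Members were taken by gene symbol: 73 carried a symbol of the families Cfap, Dnah, Dnai, Dnaaf, Rsph, Tekt or Drc followed by a number, and 9 were added by name (Foxj1, Sntn, Ccdc39, Ccdc40, Ccdc78, Tppp3, Spag6, Spef2 and Hydin). The rule uses symbols and no measured value, although it was drawn up with earlier results of these data known. Of the 82, 78 had enough reads to be tested, among 14794 tested genes in all.

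Lung RNA of rats was sequenced in 20 libraries, 5 in each of 4 groups. Sham animals had their abdomen opened at the midline and the caecum handled, with no ligation and no puncture. CLP animals underwent caecal ligation and puncture, which lets gut bacteria into the abdomen, as a model of acute respiratory distress syndrome. The groups Sham+VNS and CLP+VNS had these same operations and received vagus nerve stimulation (VNS) on the right side at the neck. All 4 groups therefore shared abdominal surgery, and no group without surgery was analysed here. The labels give no strain, age, sex or time of collection, nor which piece of lung was taken, and no statement that each library is its own animal. The p-values below measure the spread between libraries.

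Motile cilia stand on multiciliated cells of the conducting airways, which lie beside secretory club cells and move mucus towards the throat. Each cilium has an axoneme of microtubule doublets around a central pair. Outer and inner dynein arms drive sliding between doublets, radial spokes and the central pair control it, and nexin links with Ccdc39 and Ccdc40, the rulers that set the repeat, hold the arms in register. Assembly factors build the dynein arms in the cytoplasm. The forkhead factor Foxj1 and the RFX factors, which bind a promoter element called the X-box, switch these genes on. In whole lung this RNA comes from a minor cell population, and fewer ciliated cells cannot be told apart from less RNA per ciliated cell.

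Total counts ran from 13729646 to 14453181 per library. The tissue label was borne out by its defining genes, with summed levels of 8 alveolar type 2 markers between 41426 and 66626 TPM (a level scaled for gene length and library size). Some libraries stood apart from their group. Sham replicate 1 held 362 TPM of the fat hormone Adipoq and 30279 TPM of the surfactant gene Sftpc. The other Sham libraries held 0 to 12.2 TPM and 41358 to 45285 TPM. Sham+VNS replicate 2 held 120.1 TPM of Adipoq and 32974 TPM of Sftpc, against 45352 to 47575 TPM of Sftpc in the rest of its group. The other libraries outside Sham held at most 20.1 TPM of Adipoq. CLP+VNS replicates 11 and 3 held 32758 and 34749 TPM of Sftpc, against 39090 to 40669 TPM in the rest of that group. The calls and the members' medians against Sham are given below with and without its replicate 1.

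Promoters of 69 members were found among 27457 RefSeq promoters of the assembly GRCr8, each spanning 250 bases before to 50 after the annotated start. Both strands were searched for the letters GTTGCC, the RFX half-site, for GTTGCCATG, a longer X-box core, and for GTAAACA, a forkhead site. Every X-box core match is also a half-site match. The half-site was present in 25 member promoters (36.2%) and in 12.2% of all promoters. The X-box core was present in 4 (5.80%) against 0.67%, and the forkhead letters in 5 (7.25%) against 3.76%. A match describes the letters in this window and is not a measured binding site.

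The 4 promoters with the X-box core are shown because they carry the longest element searched, the one RFX factors are known for. They belong to Sntn, which encodes sentan of the ciliary tip, the dynein assembly factor gene Dnaaf2, the doublet wall gene Cfap161 and the inner arm dynein gene Dnah2. Each line gives 79 bases on the strand of the gene, 5′ to 3′, with the X-box core in capitals. Capitals read GTTGCCATG where the core lies on the strand of the gene and CATGGCAAC where it lies on the other strand.
Sntn: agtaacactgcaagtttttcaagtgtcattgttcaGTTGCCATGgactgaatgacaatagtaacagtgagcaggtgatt
Dnaaf2: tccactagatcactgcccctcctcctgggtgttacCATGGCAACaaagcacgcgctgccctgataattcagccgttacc
Cfap161: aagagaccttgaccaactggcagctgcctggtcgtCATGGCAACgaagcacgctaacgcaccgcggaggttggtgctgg
Dnah2: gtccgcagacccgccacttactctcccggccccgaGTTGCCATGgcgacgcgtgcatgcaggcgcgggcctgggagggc
In GRCr8 these windows lie at chr15:13956111-13956189 for Sntn, chr6:93406363-93406441 for Dnaaf2, chr1:147177838-147177916 for Cfap161 and chr10:54766028-54766106 for Dnah2, all on the minus strand and all in the stretch before the annotated start. The capitals begin 64 bases before the start in Sntn, 83 in Dnaaf2, 60 in Cfap161 and 45 in Dnah2. Reads were aligned to another assembly, mRatBN7.2, so these positions were not matched to the reads.

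Levels among the members spanned several orders of magnitude on the TPM scale. Tppp3, a tubulin polymerisation promoting protein, had a mean of 486 TPM over the 20 libraries and held 43.4% of the members' summed TPM on average. Next came Cfap20 of the doublet wall (54.2 TPM), the dynein assembly gene Cfap298 (50.7), Cfap36 (44.4) and Cfap126, a doublet wall gene (40.1). The other 73 tested members had mean levels below 20 TPM. Foxj1 had 15.3 TPM, Sntn 16.4 TPM, and the radial spoke head genes Rsph9 and Rsph1 had 19.2 and 19.0 TPM.

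Dynein heavy chains sat lower. In the outer arm, the heavy chain genes Dnah11, Dnah9 and Dnah5 had means of 5.22, 3.74 and 1.25 TPM, and the intermediate chain genes Dnai1 and Dnai2 had 4.02 and 3.67 TPM. In the inner arm, levels ran from 0.395 TPM for Dnah14 to 12.6 TPM for Cfap43, with Dnah12 at 5.73 TPM and the intermediate chain genes Dnai4 and Dnai3 at 8.69 and 7.77 TPM. Among assembly factors Dnaaf5 and Dnaaf2 had 9.16 and 8.66 TPM. The nexin link genes Drc1 and Drc3 had 7.81 and 5.08 TPM and the ruler genes Ccdc39 and Ccdc40 had 7.22 and 3.74 TPM. The central pair genes Hydin and Spef2 had 3.20 and 1.36 TPM. Of the tektins, filament proteins inside the doublets, Tekt1 and Tekt2 were highest at 11.9 and 10.2 TPM. Ccdc78, a gene of centriole amplification, had 6.65 TPM.

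4 members could not be tested. Over all 20 libraries Rsph6a had 5 counts, Cfap97d1 4, Spag6 24 and Dnah8 73, and no library exceeded 0.34 TPM for any of them. Rsph6a and Dnah8 are genes of the sperm flagellum, and the germ cell marker list, 4 of whose 8 genes were in the table and 0 of which could be tested, summed to at most 0.44 TPM. The paralog of Spag6 named Spag6l, which is not a member, had a mean of 10.8 TPM (5.01 to 21.0). Rules for reads shared by these near-identical genes were not given in the sources used here, so both values are uncertain.

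**Figure D1:**
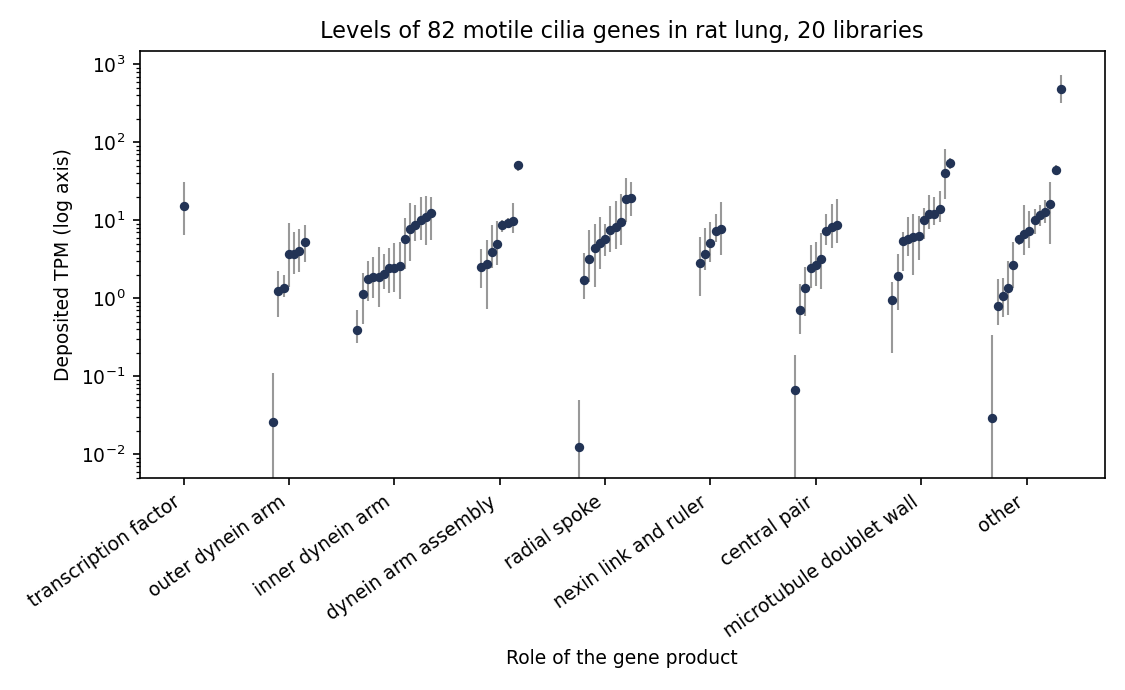
Mean deposited TPM of each of the 82 members (points, log axis) with the lowest to highest library (lines; values under the axis limit, zeros included, are drawn at the limit), by role of the gene product. Tppp3 sits at 486 TPM, 73 of the tested members lie below 20 TPM, and the 4 untested genes lie at the bottom.

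Foxj1, the factor that switches the programme on, varied 4.71-fold between the highest and the lowest library. Sham replicates 1 to 5 had 6.55, 9.25, 11.9, 14.9 and 20.6 TPM. Sham+VNS replicates 1 to 5 had 14.6, 27.8, 17.4, 10.4 and 15.2 TPM. CLP replicates 1, 3, 4, 5 and 6 had 11.5, 19.0, 11.9, 12.0 and 11.4 TPM. CLP+VNS replicates 1, 3, 5, 8 and 11 had 13.1, 30.9, 13.4, 16.9 and 17.9 TPM. The lowest value was in Sham replicate 1 and the highest in CLP+VNS replicate 3, and all 4 groups overlapped.

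The mean Foxj1 level was 12.6 ± 5.42 TPM in Sham (its replicate 1 included), 17.1 ± 6.52 in Sham+VNS, 13.2 ± 3.30 in CLP and 18.4 ± 7.27 in CLP+VNS (SD, n = 5 each). Ordered by mean, the groups ran Sham, CLP, Sham+VNS, CLP+VNS, and each neighbouring pair differed by less than the larger of its SDs. Summed over the members other than Tppp3, the level was 599 ± 145 TPM in Sham, 714 ± 187 in Sham+VNS, 549 ± 55.3 in CLP and 679 ± 156 in CLP+VNS. The highest library on this sum was 2.35 times the lowest.

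**Figure D2:**
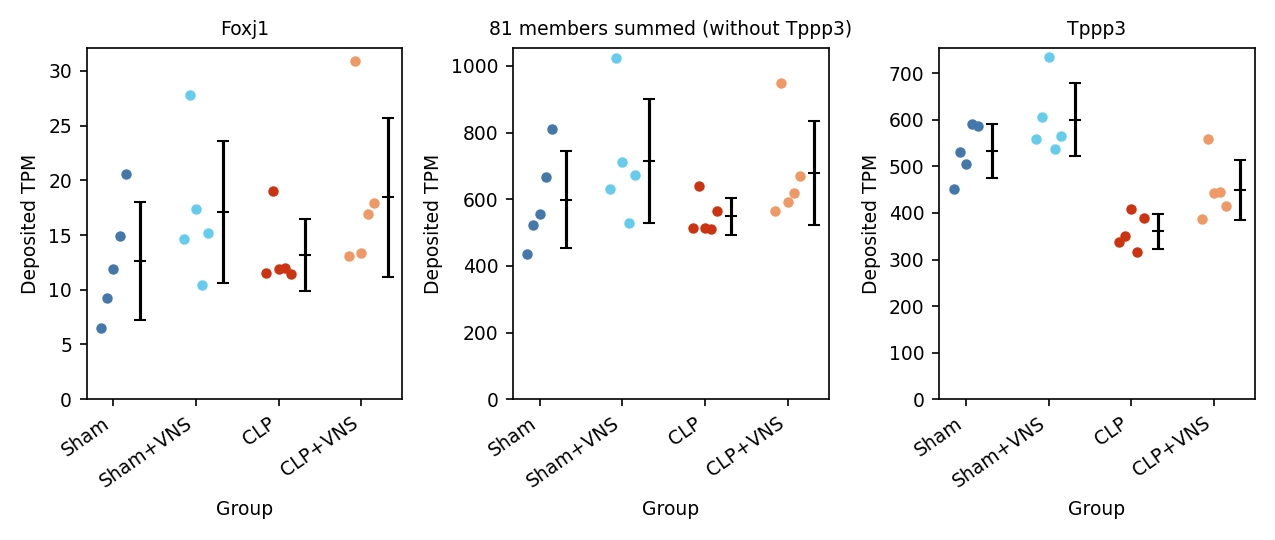
Deposited TPM per library (points) with group mean and SD (bars, n = 5) for Foxj1, for the members summed without Tppp3, and for Tppp3, each axis starting at 0. Foxj1 and the sum overlap in all groups, whereas Tppp3 lies at 317 to 408 TPM in CLP and at 452 to 592 TPM in Sham.

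Members rose and fell together from library to library. For each tested member, Pearson's r of its log2 CPM (counts scaled for library size, on a log scale) with the mean of the other tested members was taken over the 20 libraries after each group's mean had been subtracted. The median r was 0.89. It exceeded 0.8 for 57 of the 78 members and 0.9 for 35. Highest, at 0.98 each, were Foxj1, the spoke genes Rsph10b and Cfap251, the central pair gene Cfap65 and the inner arm genes Dnah12 and Cfap44. These r values are descriptions, since all genes of a library share its tissue piece and depth.

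Classes differed in how closely their genes followed the rest of the set. All 10 tested radial spoke genes, all 8 tested central pair genes and all 5 nexin link and ruler genes had r over 0.8, with class medians of 0.93, 0.91 and 0.91. In the outer arm 5 of 6 tested genes passed 0.8 (median 0.91) and in the inner arm 11 of 15 (median 0.92). In the doublet wall 7 of 12 did (median 0.88), among the assembly factors 3 of 8 (0.70), and among the other members 7 of 13 (0.86). Classes were assigned by hand from the known main role of each gene product.

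12 members had r under 0.6: Dnah17 (-0.04), Tekt5 (0.02), Cfap97 (0.16), Cfap410 (0.38), Cfap298 (0.42), Cfap157 (0.50), Tekt3 (0.54), Cfap20dc (0.54), Cfap20 (0.55), Dnaaf4 (0.56), Dnaaf2 (0.57) and Cfap36 (0.59). Tppp3 followed at 0.61. Several of these were also among the steadiest members. Cfap36 varied 1.33-fold between the highest and lowest library, Cfap298 1.35-fold, Cfap97 1.36-fold, Cfap20 1.40-fold and Dnaaf2 1.43-fold. Dnaaf5, whose r was 0.70, varied 1.36-fold. The widest ranges were 8.15-fold for Cfap53, 7.71-fold for Dnaaf6, 6.68-fold for Dnai2 and 6.48-fold for Cfap91. The SD of log2 CPM within groups had a median of 0.46 over the members and 0.16 over all tested genes, and 70 of the 78 members were above the latter. The RFX half-site was in the promoters of 6 of 15 members with r of 0.8 or under (40%) and of 18 of 50 members above it (36%).

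**Figure D3:**
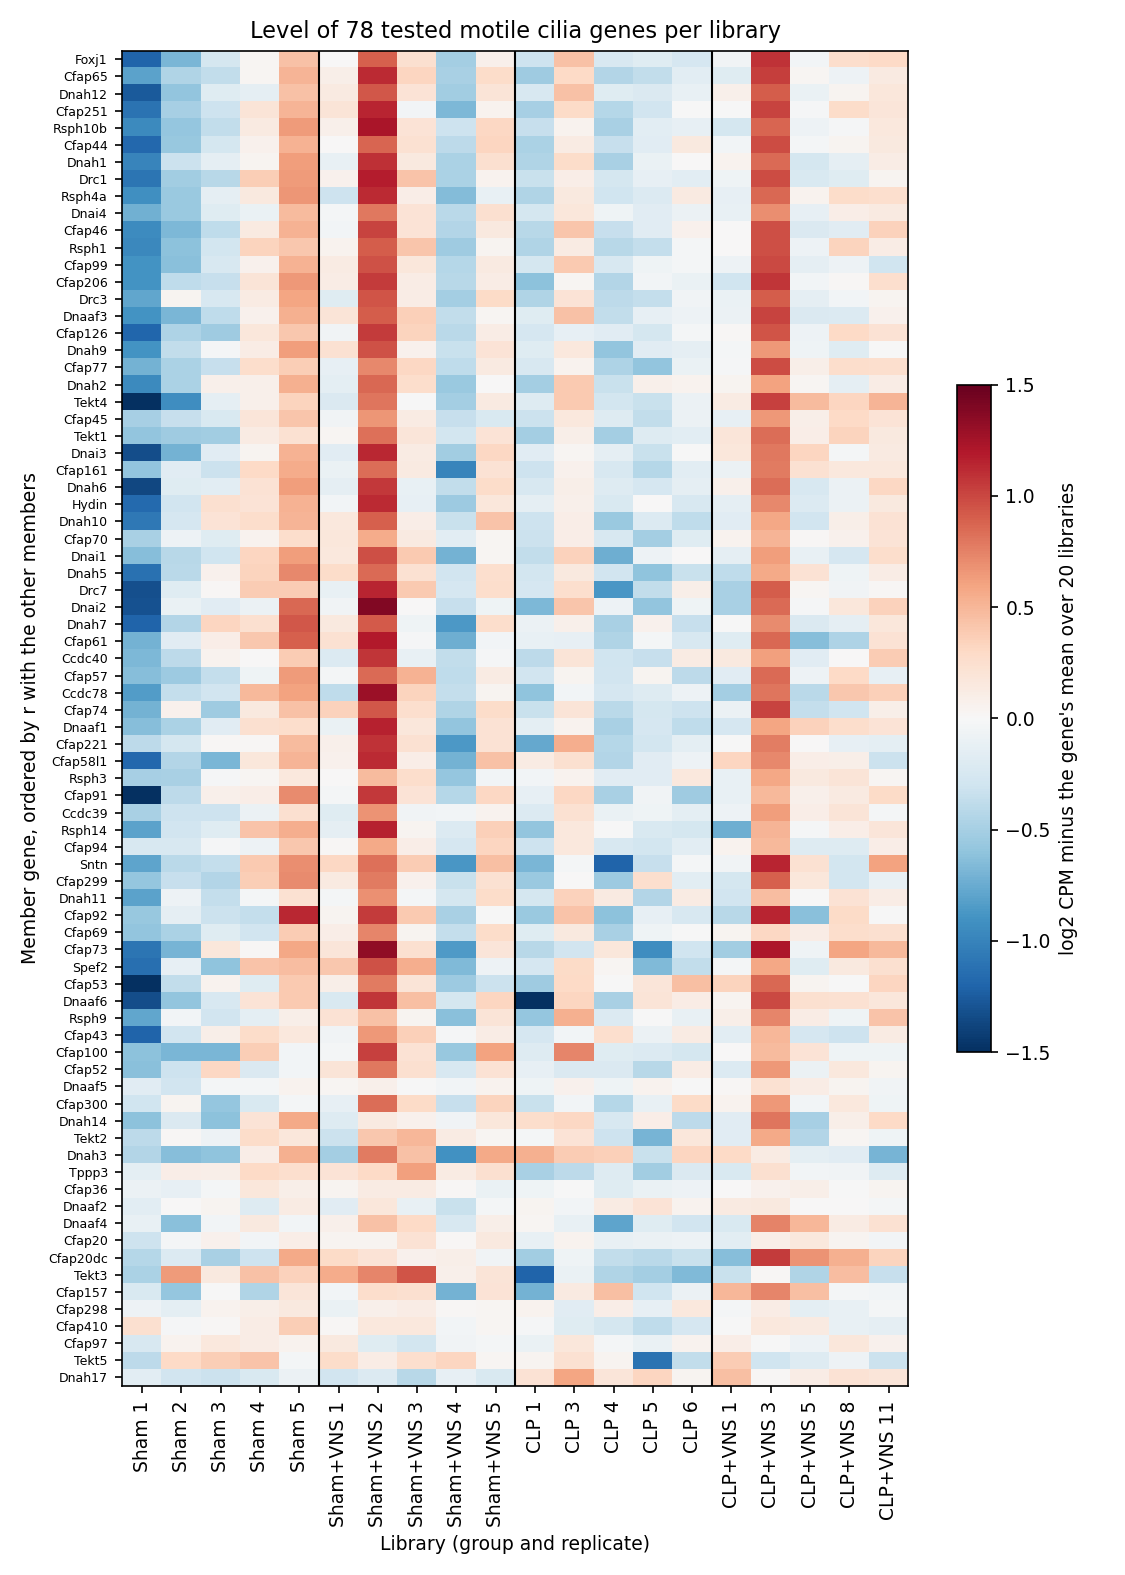
Level of the 78 tested members in each of the 20 libraries, as log2 CPM minus the gene's mean (colour, limited to 1.5 either way), with genes ordered by r with the other members and libraries by group. Most rows are red in Sham+VNS replicate 2 and CLP+VNS replicate 3 and blue in Sham replicate 1, while the rows of Dnah17, Tekt5, Cfap97 and Cfap410 at the low end of r do not show all of it.

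Over the 20 libraries, 102 of 14716 tested genes outside the set had r over 0.9 with the members' mean, where the median was -0.03. The 10 closest were Spata18 (0.977), RGD1565866 (0.975), Ccdc187 (0.973), Ccdc153 (0.972), Slc44a4 (0.970), Tcte1 (0.969), Agbl2 (0.968), Spag6l (0.967), Ccdc113 (0.965) and Zmynd10 (0.964). Zmynd10 is a dynein arm assembly factor, and Ccdc113 and Tcte1 belong to the axoneme.

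Lists of related genes followed the members to different degrees. Among 86 tested further genes of the axoneme and ciliated cells the median r was 0.87 and 63 exceeded 0.8, including the dynein light chain genes Dnali1 and Dynlrb2 (0.95 each). The 32 intraflagellar transport genes, which serve all cilia, had a median r of 0.57 with 5 over 0.8, and the 28 BBSome and transition zone genes a median of 0.37 with 1. The 23 centriole genes had a median of 0.32 with 2 over 0.8, among them Deup1 of the deuterosome (0.84). Of 11 tested genes of the ciliated cell transcription programme 3 exceeded 0.8: Tp73 (0.93), Myb (0.91) and Rfx2 (0.86). The programme's early switch Mcidas stayed at or under 0.38 TPM and was not tested.

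Most markers of airway secretory cells moved with the members. Their 10 tested genes had a median r of 0.79 with the members' mean, and 5 exceeded 0.8, among them the club cell genes Scgb1a1 at 0.90 and Scgb3a2 at 0.92. Sec14l3 had 0.39 and Aldh3a1 -0.37. Alveolar type 1 and type 2 markers had medians of -0.04 and -0.24, mesothelial markers -0.51 and airway and vascular smooth muscle markers 0.19. Few genes could be tested for airway basal cells (3, median 0.17), airway cartilage (3, median 0.48) and neuroendocrine cells (1, r of 0.76). In each group the library highest for Foxj1 was also the highest for Scgb1a1 (Sham replicate 5, Sham+VNS replicate 2, CLP replicate 3 and CLP+VNS replicate 3).

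Across the 20 libraries Foxj1 and Scgb1a1 had Pearson's r of 0.92 and Spearman's rho of 0.85 on the log2 CPM scale (permutation p = 0.00001, the smallest that 100000 permutations can give, and p = 0.00002; adjusted over 4 relations 0.00002 and 0.00004, two-sided). Without the 2 libraries farthest from the median of Scgb1a1, Sham replicates 1 and 2, r was 0.87, and with group means removed it was 0.90. Foxj1 and Scgb3a2 had r of 0.91 and rho of 0.92 (permutation p = 0.00001 each; adjusted 0.00002 and 0.00004), 0.85 without the 2 farthest libraries and 0.88 with group means removed. For the alveolar genes Sftpc and Ager, r with Foxj1 was -0.05 and 0.03 (permutation p = 0.84 and 0.91; adjusted 0.91 each) and rho was -0.18 and -0.03 (permutation p = 0.46 and 0.91; adjusted 0.61 and 0.91). Without the 2 farthest libraries these r were -0.43 and 0.04, and with group means removed they were -0.05 and 0.31. The permutations ignored the groups. Scgb1a1 and Scgb3a2 already followed the members in these same libraries, so their p-values are no separate evidence. Sec14l3, Aldh3a1 and the other alveolar markers were not put to this test. Over the 8 alveolar type 1 markers r with the members' mean ran from -0.44 to 0.30, Ager being the highest. Over the 8 type 2 markers it ran from -0.58 to 0.14.

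**Figure D4:**
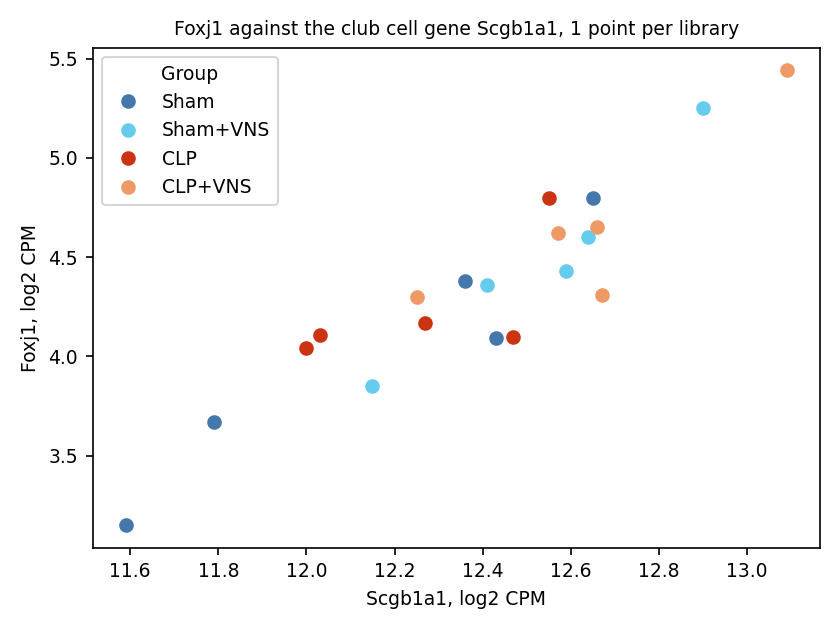
Foxj1 against the club cell gene Scgb1a1, both as log2 CPM, with 1 point per library coloured by group. The points rise together from Sham replicate 1 at the lower left to CLP+VNS replicate 3 at the upper right (r = 0.92 over 20 libraries), with all 4 groups along the same line of points.

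CLP against Sham asks what caecal ligation and puncture changed in the lung without stimulation. Of the 78 members 4 were called, 1 higher and 3 lower, at adjusted p below 0.05 in edgeR's quasi-likelihood test with Benjamini-Hochberg adjustment over all tested genes. Among all tested genes 40.3% were called, 19.8% higher and 20.5% lower, and the members' 4 of 78 was far below that share. With libraries scaled by total count alone, 38.5% of the genes called were higher rather than about equal shares, and the members' 4 calls were the same. The spread of the members was larger too, with a median SE of the log2 fold change of 0.28 against 0.10 over all genes. The members' median log2 fold change was -0.08 (all genes -0.01) and 28 were positive and 50 negative. This lean rested on single libraries: without Sham replicate 1 the median was -0.20 with 15 positive, and without Sham replicate 5 it was 0.12 with 57 positive. Foxj1 itself differed by 0.15 ± 0.30 (log2, SE), with a 95% interval from -0.48 to 0.77.

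Tppp3 fell in CLP. Sham replicates 1 to 5 had 452, 531, 506, 592 and 586 TPM, and CLP replicates 1, 3, 4, 5 and 6 had 337, 349.9, 408, 317 and 389.7 TPM. Every CLP library lay below every Sham library. The log2 fold change was -0.47 ± 0.11 (adjusted p = 0.00141).

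Dnah17, an outer arm heavy chain gene known from sperm flagella, rose in CLP. Its level was 1.28, 1.15, 1.07, 1.16 and 1.33 TPM in Sham replicates 1 to 5 and 1.57, 2.00, 1.5, 1.59 and 1.33 TPM in CLP replicates 1, 3, 4, 5 and 6. The lowest CLP library matched the highest Sham library, and the other CLP libraries lay above all Sham libraries. The log2 fold change was 0.50 ± 0.10 (adjusted p = 0.000376). Its r with the other members was -0.04.

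Cfap410, a gene of the ciliary base, fell in CLP. Its level was 14.6, 12.0, 11.6, 12.7 and 15.6 TPM in Sham replicates 1 to 5 and 11.4, 9.85, 9.43, 8.41 and 9.05 TPM in CLP replicates 1, 3, 4, 5 and 6. The groups did not overlap, though the nearest libraries lay 11.4 against 11.6 TPM. The log2 fold change was -0.37 ± 0.09 (adjusted p = 0.00263).

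Tekt3, a tektin of the doublet wall, had the largest drop among the tested members. Its level was 1.33, 3.03, 2.02, 2.56 and 2.45 TPM in Sham replicates 1 to 5 and 0.71, 1.63, 1.27, 1.18 and 1.04 TPM in CLP replicates 1, 3, 4, 5 and 6. Only Sham replicate 1 lay within the CLP range. The log2 fold change was -0.87 ± 0.27 (adjusted p = 0.0144). All 4 calls stood in every one of the 27 alternative settings, Sham replicate 1 left out included.

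Markers of other cells moved in the same comparison. All 7 neutrophil markers rose in CLP, with a summed level of 2733 to 7269 TPM in Sham and 26249.9 to 40603 TPM in CLP, and 0 of the 7 were at 0 in all libraries. Of 8 alveolar type 1 markers 6 fell, with a summed level of 6443 to 8605 TPM in Sham and 4537 to 6926 TPM in CLP, and 3 of 8 smooth muscle markers fell. All 4 tested cardiac muscle markers fell (median -2.17; summed level 14.3 to 183 TPM in Sham and 8.19 to 18.0 TPM in CLP), as did all 3 tested adipose markers (median -2.90; 26.1 to 1369 TPM and 29.5 to 41.0 TPM). The Sham and CLP ranges overlapped in both the cardiac and the adipose list. Sham replicate 1 held 362 TPM of Adipoq and the other Sham libraries at most 12.2 TPM. Values of these lists without that library are not given here. Of 8 alveolar type 2 markers 3 rose. Airway secretory genes had a median log2 fold change of -0.04, with a summed level of 30086 to 59593 TPM in Sham and 36805 to 51822 TPM in CLP. The part of these cells in the changes of Tppp3, Dnah17, Cfap410 and Tekt3 was not tested.

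All other tested members missed the threshold in CLP against Sham. The 10 radial spoke genes had a median of -0.09, the 8 central pair genes -0.08, the 5 nexin link and ruler genes -0.08, the 15 inner arm genes 0.05 and the 8 assembly factors 0.07. Hydin differed by -0.11 ± 0.30, Ccdc39 by 0.12 ± 0.17, Rsph9 by 0.18 ± 0.22 and Dnah5 by -0.30 ± 0.27. Intervals were narrower for steady genes. Cfap298 differed by -0.01 ± 0.07 (95% interval -0.16 to 0.14) and Cfap20 by -0.03 ± 0.07 (-0.18 to 0.12). For Cfap36 the difference was -0.09 ± 0.06 (-0.21 to 0.03). Their r with the other members was 0.42, 0.55 and 0.59, so these intervals do not bound the members that rise and fall together.

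Related lists had calls in both directions in CLP against Sham. Of the 86 further axonemal and ciliated cell genes 1 was higher, Fhad1 (0.58 ± 0.22), and 3 were lower. These 3 were Efhc2 (-0.68 ± 0.21), the tubulin gene Tuba1a (-0.44 ± 0.13) and Dzip1l (-0.26 ± 0.09). With the members' mean, r was 0.37 for Fhad1, 0.39 for Efhc2, -0.03 for Tuba1a and 0.45 for Dzip1l. The list median was 0.87. In the intraflagellar transport list 2 of 32 rose and 4 fell, with Ift57 at 0.32 ± 0.07 and Ift172 at -0.29 ± 0.08. Of 28 BBSome and transition zone genes 1 rose and 6 fell, of 23 centriole genes 7 rose and 3 fell, and of 11 transcription programme genes 3 rose, Rfx3 (0.19 ± 0.07), Rfx7 and E2f5. All of these shares except that of the centriole genes lay under the 40.3% called over all genes.

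CLP+VNS against Sham+VNS repeats the operation's comparison in stimulated animals. Of the 78 members 2 were called, 1 higher and 1 lower, against 27.3% of all tested genes (13.9% higher and 13.4% lower). Dnah17 had 1.12, 1.22, 1.03, 1.27 and 1.15 TPM in Sham+VNS replicates 1 to 5 and 1.74, 1.37, 1.41, 1.53 and 1.55 TPM in CLP+VNS replicates 1, 3, 5, 8 and 11. The groups did not overlap, and the log2 fold change was 0.45 ± 0.10 (adjusted p = 0.00148). Of the neutrophil markers 5 of 7 rose here.

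Tppp3 fell here too. Sham+VNS replicates 1 to 5 had 558, 607, 734, 538 and 565 TPM, and CLP+VNS replicates 1, 3, 5, 8 and 11 had 387, 558, 442, 446 and 416 TPM. CLP+VNS replicate 3, highest for Foxj1, reached into the Sham+VNS range and the other 4 lay below it. The log2 fold change was -0.35 ± 0.10 (adjusted p = 0.0161). Without Sham+VNS replicate 3 it was -0.27 and no longer called (adjusted p = 0.0571). Of the 8 alveolar type 1 markers 7 fell in this comparison.

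Tekt3 differed by -0.66 ± 0.26 and missed the threshold (adjusted p = 0.0639), and Cfap410 by -0.05 ± 0.09 (adjusted p = 0.724). Tekt3 was called without Sham replicate 1, Sham+VNS replicate 4 or CLP+VNS replicate 8, and Cfap20dc without CLP+VNS replicate 1. The members' median was -0.04, with 33 positive and 45 negative. It was 0.19 with 68 positive without Sham+VNS replicate 2, and -0.21 with 12 positive without CLP+VNS replicate 3. Foxj1 differed by 0.16 ± 0.29.

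The interaction tested whether the effect of CLP differed with stimulation. It called 0 of the 78 members in edgeR and 0 in DESeq2. In edgeR 1 member had unadjusted p below 0.05, against 8.23% of all tested genes. Of all tested genes, edgeR called 0% and DESeq2 called 8 genes. The 1 member was Cfap410, whose interaction of 0.32 ± 0.13 (adjusted p = 0.545) had a 95% interval from 0.06 to 0.59. For Tppp3 the interaction was 0.12 ± 0.15 (-0.19 to 0.43), for Dnah17 -0.05 ± 0.14 (-0.33 to 0.24) and for Foxj1 0.02 ± 0.42 (-0.86 to 0.89).

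Stimulation was compared in animals without and with CLP. In Sham+VNS against Sham 74 of the 78 members had a positive log2 fold change, with a median of 0.31 (all genes -0.01), and 0 were called in edgeR and 0 in DESeq2. Of all tested genes, edgeR called 0% and DESeq2 called 6 genes. At unadjusted p below 0.05 there were 5 members in either tool, against 8.01% of all tested genes in edgeR. The smallest adjusted p was 0.623, shared by Cfap100 (0.62 ± 0.28), Cfap300 (0.46 ± 0.20), Tekt1 (0.46 ± 0.21), Cfap52 (0.43 ± 0.19) and Cfap69 (0.39 ± 0.18). Foxj1 differed by 0.45 ± 0.30 (95% interval -0.18 to 1.07). Since most members follow each other between libraries, the 74 signs are not 74 separate observations.

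That median and the count of 5 depended on single libraries. The median was 0.17 without Sham replicate 1, the lowest of all libraries for Foxj1, 0.12 without Sham+VNS replicate 2, the highest of its group, and 0.50 without Sham replicate 5. At unadjusted p below 0.05 there were 0, 0 and 25 members in these 3 fits, whose shares over all genes are not given here. Medians by class were 0.35 for the inner arm, 0.40 for the central pair, 0.33 for the radial spokes, 0.34 for the assembly factors, 0.30 for the outer arm and for the doublet wall, 0.29 for the nexin links and rulers and 0.20 for the other 13 members. Differences between classes were not tested.

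In CLP+VNS against CLP 74 of the 78 members were again positive, with a median of 0.33 (all genes 0.00). In edgeR 0 of them were called and in DESeq2 0, against 0.027% of all tested genes in edgeR (4 genes) and 143 genes in DESeq2. At unadjusted p below 0.05 there were 9 members in edgeR, against 13% of all genes. Cfap20dc had the smallest adjusted p (0.187). Its level was 1.45, 2.35, 2.41, 1.89 and 1.68 TPM in CLP replicates 1, 3, 4, 5 and 6 and 1.34, 5.29, 3.97, 3.5 and 2.91 TPM in CLP+VNS replicates 1, 3, 5, 8 and 11. CLP+VNS replicate 1 was the lowest of these 10 libraries and the other 4 CLP+VNS libraries lay above all CLP libraries. The log2 fold change was 0.85 ± 0.25, and the gene was called without CLP+VNS replicate 1, a fit that called 277 of all tested genes.

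Sntn had 9.64, 14.2, 5.04, 11.2 and 14.9 TPM in CLP replicates 1, 3, 4, 5 and 6 and 16.8, 31.2, 17.2, 11.4 and 20.5 TPM in CLP+VNS replicates 1, 3, 5, 8 and 11. The groups overlapped through CLP+VNS replicate 8, and the log2 fold change was 0.84 ± 0.35 (adjusted p = 0.318). Foxj1 differed by 0.46 ± 0.30 (95% interval -0.16 to 1.08), Tppp3 by 0.31 ± 0.11 (adjusted p = 0.230), Tekt1 by 0.59 ± 0.21 (adjusted p = 0.254) and Rsph1 by 0.54 ± 0.28. The median over the members was 0.13 without CLP+VNS replicate 3 and 0.44 without CLP replicate 3.

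Markers of other cells also differed between these groups. Airway secretory genes had medians of 0.47 in Sham+VNS against Sham and 0.59 in CLP+VNS against CLP, but the smallest adjusted p over the 10 tested genes was 0.560 (Gp2) and 0.284 (Scgb3a1), and Aldh3a1 was at -0.13 and -0.19. Mesothelial markers had medians of -0.97 and -0.98 (5 genes tested), cardiac muscle markers -2.60 and 0.47 (4 genes) and adipose markers -1.35 and 0.06 (3 genes). The part of these cells in the members' values was not tested. The summed level of the secretory genes was 44471 to 73449.7 TPM in Sham+VNS and 44975 to 77659 TPM in CLP+VNS, and 0 of the 12 listed genes were at 0 in all libraries. Scgb1a1 differed by 0.34 ± 0.20 (adjusted p = 0.677) and 0.39 ± 0.20 (adjusted p = 0.409). The 86 further axonemal and ciliated cell genes had a median of 0.34 in both. The stimulation comparisons use the same CLP and Sham libraries as the operation comparisons, and these values are set side by side only.

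The comparisons were repeated with the log2 CPM of Scgb1a1 as a covariate, a fit chosen after seeing the data. Each member is then compared at equal Scgb1a1. In these same libraries Scgb1a1 had r of 0.90 with the members' mean, and it differed by 0.34 ± 0.20 and 0.39 ± 0.20 in the stimulation comparisons. That choice by itself lowers the SE and shifts the medians, so neither is separate evidence. Sec14l3 (r of 0.39) and Aldh3a1 (-0.37) were not tried as covariates. The median SE of the members dropped from 0.28 to 0.16 in CLP against Sham. In Sham+VNS against Sham the members' median became -0.05 with 28 of 78 positive, and in CLP+VNS against CLP it became -0.08 with 23 positive. Foxj1 differed by -0.03 ± 0.14 and -0.10 ± 0.14 in these. 0 members were called in either, and 0% and 0.00676% of all tested genes were called. At unadjusted p below 0.05 there were 0 and 5 of the 78 members, against 5.3% and 8.84% of all tested genes. The interaction again called 0 members and 0% of all genes, with 1 member at unadjusted p below 0.05 against 8.58% of all genes.

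With this covariate, CLP against Sham called 5 members, the 4 above and Sntn, against 40.5% of all tested genes. Sntn had 9.50, 10.8, 11.7, 16.5 and 28.4 TPM in Sham replicates 1 to 5, a range that overlaps the CLP values above, and its log2 fold change was -0.53 ± 0.20 (adjusted p = 0.0437) with the covariate and -0.42 ± 0.36 (adjusted p = 0.374) without. CLP+VNS against Sham+VNS called 3, adding Tekt3 (-0.71 ± 0.25, adjusted p = 0.0389), against 27.2% of all tested genes. Tppp3 was at -0.50 ± 0.09 and -0.39 ± 0.09 and Dnah17 at 0.51 ± 0.10 and 0.46 ± 0.10 in the 2 operation comparisons, within 1 SE of their values without the covariate. Whether CLP or stimulation changes Scgb1a1 itself was not resolved at this spread, as its differences of 0.06 ± 0.20 and 0.34 ± 0.20 show.

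**Figure D5:**
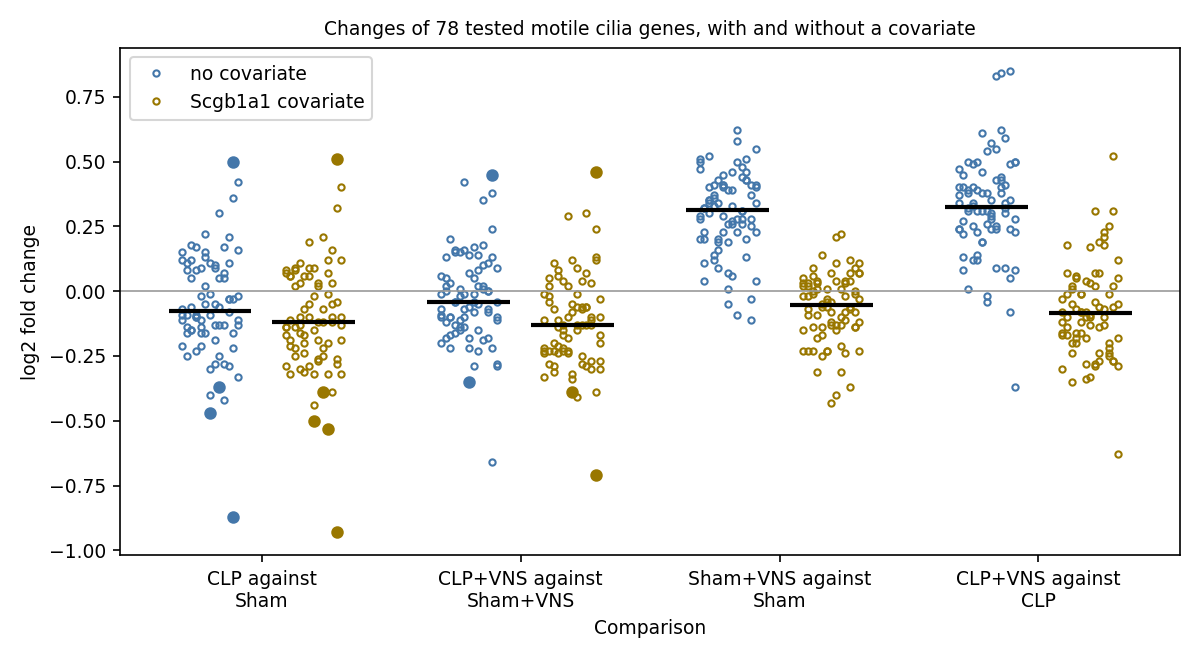
Log2 fold change of each of the 78 tested members in 4 comparisons, without (left cloud) and with (right cloud) Scgb1a1 as covariate, filled points being called at adjusted p below 0.05 and bars the median. In the stimulation comparisons the clouds centre at 0.31 and 0.33 without the covariate and at -0.05 and -0.08 with it.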

How the data were processed

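Gene values were used from lung RNA of 20 rat libraries, prepared with poly(A) selection and strand-specific chemistry, per the labels' protocols. The authors deposited estimated counts (expected counts, of which 91.5% are whole numbers) and TPM values per gene, per the file headers. Reads were aligned to mRatBN7.2, per the submitters' processing notes. The annotation release, aligner and read counter were not given in the sources used here, so the handling of reads shared by paralogs is unknown.

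Counts were rounded and fitted with edgeR 4.0.16 (R 4.3.3): filterByExpr at a minimum count of 10 (14794 genes kept), TMM scaling, 4 group means on all 20 libraries, robust quasi-likelihood with 16 residual degrees of freedom, biological coefficient of variation 0.161. Called means adjusted p below 0.05, Benjamini-Hochberg over all tested genes, two-sided. The procedure was tested on simulated data in which genes varied independently. The members follow each other between libraries, so that test does not cover them as a set. Per-library levels are deposited TPM. Log2 CPM used a prior count of 2. Correlation p-values came from 100000 permutations (scipy 1.17.1). Alternatives were other scalings, no filter, a replicate block, fits on the compared groups, DESeq2 1.42.0 and leaving out each replicate. Scgb1a1 as covariate and the sum without Tppp3 were added after seeing the data, as were the motifs.

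Members, lists and tests were chosen with earlier results of these data known. Named are the 9 genes of the rule's name list, the 2 highest by mean TPM in each symbol family, all members called in any comparison, and the 10 genes outside the set most like the members' mean. Others named as the extremes of a measure (for example Cfap53, Sntn beside CLP+VNS, Cfap20dc) or as examples of a class or list were chosen after their values were seen.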

Additional observations from a re-analysis of the deposited data

Results flagged for a closer look

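For 26 named members and the summed level of all 82 members, 108 groups of 5 libraries were checked for a single library far from the rest, and 14 such values were found. Chance marks about 1 in 20 separate groups, but the members follow each other between libraries, so these groups are not separate and that rate does not apply to the count. All 14 were the highest library of their group, in Sham+VNS replicate 2, CLP replicate 3 or CLP+VNS replicate 3.

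In CLP+VNS replicate 3, Foxj1 had 30.9 TPM against 13.1 to 17.9 in the other 4 libraries. Dnah12 had 10.2 TPM there (others 4.90 to 6.21), Drc1 14.9 (5.94 to 7.60), Drc3 8.99 (4.17 to 4.97) and Tekt1 20.5 (11.7 to 13.9). The summed level of all members was 1507 TPM (951 to 1086).

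In CLP replicate 3, Foxj1 had 19.0 TPM against 11.4 to 12.0 in the others of its group. Dnah12 had 7.14 TPM (others 4.41 to 4.77), Ccdc39 8.11 (6.01 to 6.40) and Cfap20 54.2 (48.6 to 49.5).

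In Sham+VNS replicate 2, Ccdc39 had 12.2 TPM (others 6.18 to 7.25), Ccdc40 8.08 (2.87 to 3.45), Ccdc78 15.8 (4.64 to 7.54) and Hydin 6.85 (2.15 to 3.41).

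The same 3 libraries were the highest of their groups for Scgb1a1, at 75394, 50365 and 71015 TPM in CLP+VNS replicate 3, CLP replicate 3 and Sham+VNS replicate 2. The part of airway content in these values was not tested.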

How the results depend on the processing

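The count of 4 members called in CLP against Sham was 4 or 5 in all 27 alternatives and the 4 genes stayed called in each. In CLP+VNS against Sham+VNS, 2 were called, and 1 to 3 when single libraries were left out. With the replicate block the count was 1, since Tppp3 (-0.29, adjusted p = 0.110) was no longer called. The block has a term per replicate number, and numbers 6, 8 and 11 each occur in a single library. CLP replicate 6 and CLP+VNS replicates 8 and 11 thus add nothing to the comparisons of that fit. Its calls over all genes here were 2110, against 4044 without the block. Over all alternatives the adjusted p of Tppp3 ran from 0.00222 to 0.110. Between libraries with equal replicate numbers, the correlation of deviations ran from -0.16 to 0.18 over 22 pairs, with 3 above 0.1. Libraries with unequal numbers were not compared, so whether the numbers mark pairs was not tested. In CLP+VNS against CLP the count was 0, and 0 to 1 when single libraries were left out. Sham+VNS against Sham and the interaction stayed at 0 in all 27 and 26 alternatives. The members' median ran from -0.20 to 0.12 (CLP against Sham), -0.21 to 0.19 (CLP+VNS against Sham+VNS), -0.05 to 0.50 (Sham+VNS against Sham), -0.08 to 0.44 (CLP+VNS against CLP) and -0.13 to 0.22 (interaction). The sign turned in the first without Sham replicate 5, in the second with the replicate block (0.08) and without Sham+VNS replicate 2 (0.19) or CLP+VNS replicate 1 (0.02) or 5 (0.01), and in both stimulation comparisons with Scgb1a1 as covariate. The interaction median, 0.02, turned with that covariate (-0.02) and without several single libraries, farthest without Sham replicate 5 or CLP+VNS replicate 3 (-0.13 each). Scaling by total count moved the median of all genes by at most 0.05. The cause of these shifts was not tested. Tekt3 had few counts (555 in all), and its SE of 0.27 in CLP against Sham lay near the members' median SE of 0.28.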
